A study of Mus musculus with 24 samples.

Results

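The comparison asked whether 60 min of partial hepatic ischemia changed liver RNA by a different amount in adult than in young mice. For each gene the young response (60 min of ischemia minus sham) was subtracted from the adult response on the log2 scale, so a negative value means that the adult response lay lower. The young mice were 4 to 5 weeks old and the adult mice 12 to 14 months old. Each age had a group under sham operation and groups under 30, 60 or 90 min of partial ischemia, with 3 mice and 3 Affymetrix arrays in each of the 8 groups. The sample titles write these times as 30/0, 60/0 and 90/0. They do not define the second number, and no time of restored blood flow is named in them. The comparison itself used 12 of the 24 arrays, namely young sham, young 60 min, adult sham and adult 60 min. All 26180 probe sets of the table were members, and 15225 of them carried a single gene symbol, for 14348 genes. RNA came from the median and left lobes, which were placed in a preservative at once after dissection. The labels record no genetic change and no drug, and strain and sex are not given in the sources used here. Partial ischemia clamps the supply of some lobes only, so that blood goes on reaching the rest of the liver.

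Ischemia cuts off oxygen and glucose, ATP falls within minutes, and hepatocytes stop costly work such as protein synthesis and secretion. Misfolded proteins in the cytosol are met by heat shock chaperones, which the factor Hsf1 induces. Misfolded proteins in the endoplasmic reticulum (ER) are met by the unfolded protein response, in which Ire1 splices the Xbp1 mRNA and Atf6 is cleaved, and both factors then raise ER chaperones. Damaged proteins are tagged with ubiquitin and degraded by the proteasome. In mice and people, older livers are known to tolerate ischemia less well than young ones.

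The deposited value of a probe set on an array was a ratio to the average of its own age's 3 sham arrays. Each sham group therefore averaged 1 by construction and kept its spread. Array medians lay between 0.955 and 1.02. Absolute brightness was not kept, so young and adult shams could not be set against each other, no gene could be called absent, and the liver label could not be checked against marker levels. Several sham arrays stood apart. Young sham replicate 3 lay high and young sham replicate 1 low for many housekeeping lists, with a median log2 ratio over 44 proteasome genes of -0.25, -0.10 and 0.31 on the 3 young sham arrays and -0.07, -0.01 and 0.09 on the 3 adult ones. Adult sham replicate 2 had a ratio of 0.0789 for metallothionein Mt2, where the other adult shams had 1.23 and 1.69. Adult sham replicate 3 was high for the acute phase gene Saa2, at 2.46 against 0.17 and 0.37. For some of the lists and genes that rested on these arrays, values are given below with and without them. For other genes only the spread of the shams is given. Tissue was bulk liver, so fewer cells of a type and less RNA per cell cannot be told apart.

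No gene's response was shown to differ between the ages. By limma with Benjamini-Hochberg adjustment, 0 of 26180 probe sets (0%) passed an adjusted p of 0.05, and the smallest adjusted p was 0.708. At an unadjusted p under 0.05 there were 1821 probe sets, of which 1232 were lower and 589 higher in the adult response. Per gene, 666 of 14348 (4.64%) were lower and 326 (2.27%) higher. After quantile normalization, which forces all arrays to the same distribution, the probe set counts were 245 lower and 256 higher, and after centring each array on its median they were 952 and 808. The excess on the lower side therefore depended on the scaling. The 95% interval of a gene's difference reached a median of 0.36 log2 units to each side, and for 13344 of the 14348 genes (93.0%) the whole interval lay between -1 and 1. That half-width is for a single gene without adjustment, so it is not the size above which a difference would have passed. Larger differences, such as -1.29 for Chka, did not pass after adjustment with 3 arrays per group.

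Each age taken alone gave unequal numbers of calls, which is no test of a difference between the ages. In adults 238 genes (1.66%) rose and 1130 (7.88%) fell against sham at an adjusted p of 0.05, or 441 and 1626 probe sets. In young mice 2 genes (0.0139%) passed. The 1130 genes that fell in adults had a median of -0.54 in adults and -0.19 in young mice, and 1064 of them (94.2%) were also below 0 in young mice. The 238 genes that rose in adults had medians of 0.44 and 0.09, and 198 (83.2%) were above 0 in young mice. These genes were chosen on their adult values, which favours larger adult medians, so the medians are no test of a difference. The adult count was unstable. Leaving out adult sham replicate 1 or adult 60 min replicate 2, or normalizing by quantiles, left 0 calls. In the fits with 0 calls, each count of list members that fell, given below, was 0 as well. There was 1 call without adult 60 min replicate 3, and there were 4 and 723 without adult sham replicates 3 and 2. The count was 1361 with the 12 arrays fitted alone, and without adult 30 min replicate 3, which enters only the shared estimate of spread, 1028 probe sets rose and 3089 fell. Across the 14348 genes the adult and young responses had a Pearson r of 0.56 and a Spearman rho of 0.59, as a description, since genes are not independent replicates.

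**Figure D1:**
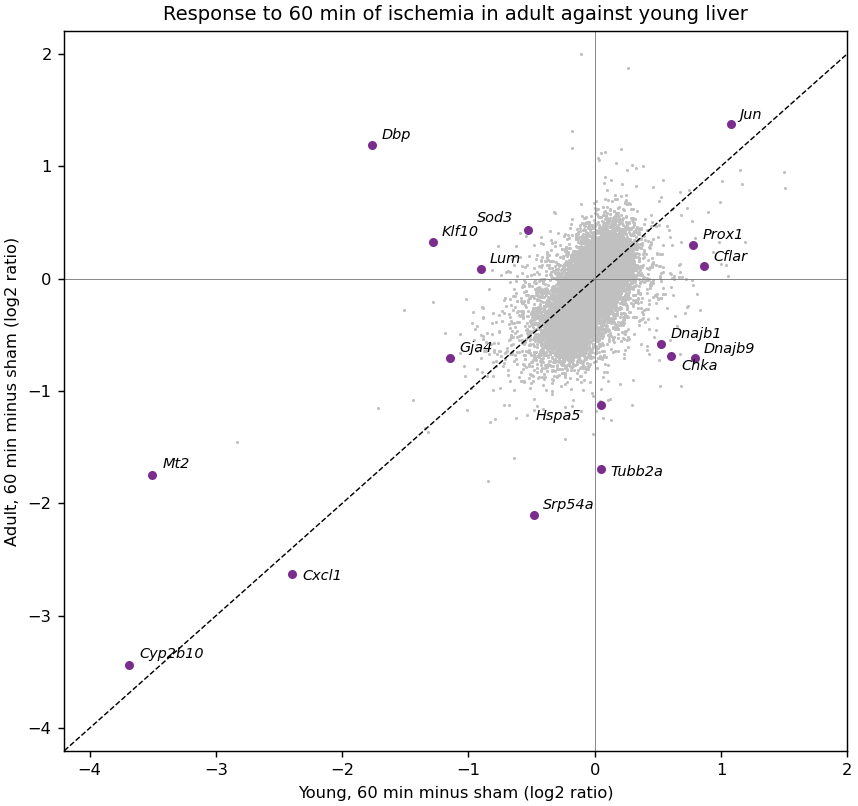
Each grey point is a gene, with the young response (60 min minus sham, log2 ratio) on the horizontal axis and the adult response on the vertical axis; the dashed line marks equal responses and purple points are named genes. Most genes lie within 1 log2 unit of both zero lines, Chka, Dnajb1, Dnajb9 and Hspa5 lie below the dashed line, and Sod3, Lum and Dbp lie above it.

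Choline kinase alpha (Chka), which catalyses the first step of phosphatidylcholine synthesis, had responses of opposite sign in the 2 ages. Its ratios were 1.49, 1.48 and 1.42 on the young 60 min arrays and 0.553, 0.578 and 0.728 on the adult 60 min arrays. The sham arrays spread from 0.674 to 1.32 in young and 0.837 to 1.19 in adult mice, so the young ischemic values lay above all young shams and the adult ones below all adult shams. The adult response was -0.69 log2 and passed (adjusted p = 0.0421), the young response was 0.60 and did not (adjusted p = 0.300), and the difference was -1.29 ± 0.28 (SE), with an adjusted p of 0.708 by limma. Crlf3, a cytokine receptor-like factor, had ratios of 1.04, 1.02 and 1.01 in young and 0.733, 0.666 and 0.648 in adult mice. It fell in adults by 0.55 on the log2 scale, stayed at 0.03 in young mice, and had the smallest unadjusted p on the lower side, 0.000109, for a difference of -0.58 ± 0.12. N-acetylglutamate synthase (Nags), which makes the activator that carbamoyl phosphate synthetase needs to start the urea cycle, showed a like separation. Its ratios were 1.12, 1.05 and 1.12 in young and 0.722, 0.654 and 0.693 in adult ischemic liver, with a difference of -0.68 ± 0.15. Both genes fell in adults, and neither difference passed.

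The rest of the 15 genes that led the lower side by unadjusted p, none of which passed, are given as a description, since a ranking by p favours groups that lie apart. Among them, the lipid droplet hydrolase Ldah and the peptide-degrading ectoenzyme Trhde fell in adults by 0.63 and 0.91 on the log2 scale and had young responses of -0.03 and 0.10. Trhde read 0.447, 0.544 and 0.572 on the adult and 1.12, 0.975 and 1.13 on the young ischemic arrays. The tight junction scaffold Patj and the Integrator subunit Ints13 also fell in adults, with responses of -0.38 and -0.29 against 0.08 and 0.12 in young mice. In another set the young value was the one further from sham. The splicing factor Luc7l had young and adult responses of 0.34 and -0.17, Ly6k 0.36 and -0.04, the kelch protein gene Klhl28 0.43 and -0.22, E330034G19Rik 0.31 and -0.15, and the hyaluronan-degrading Cemip 0.33 and -0.20. Cacul1 lay between these sets, at 0.35 in young and -0.41 in adult mice. Over all genes, the 3 adult ischemic values lay below the 3 young ones without overlap in 2431 genes (16.9%) and above them in 1254 (8.74%).

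**Figure D2:**
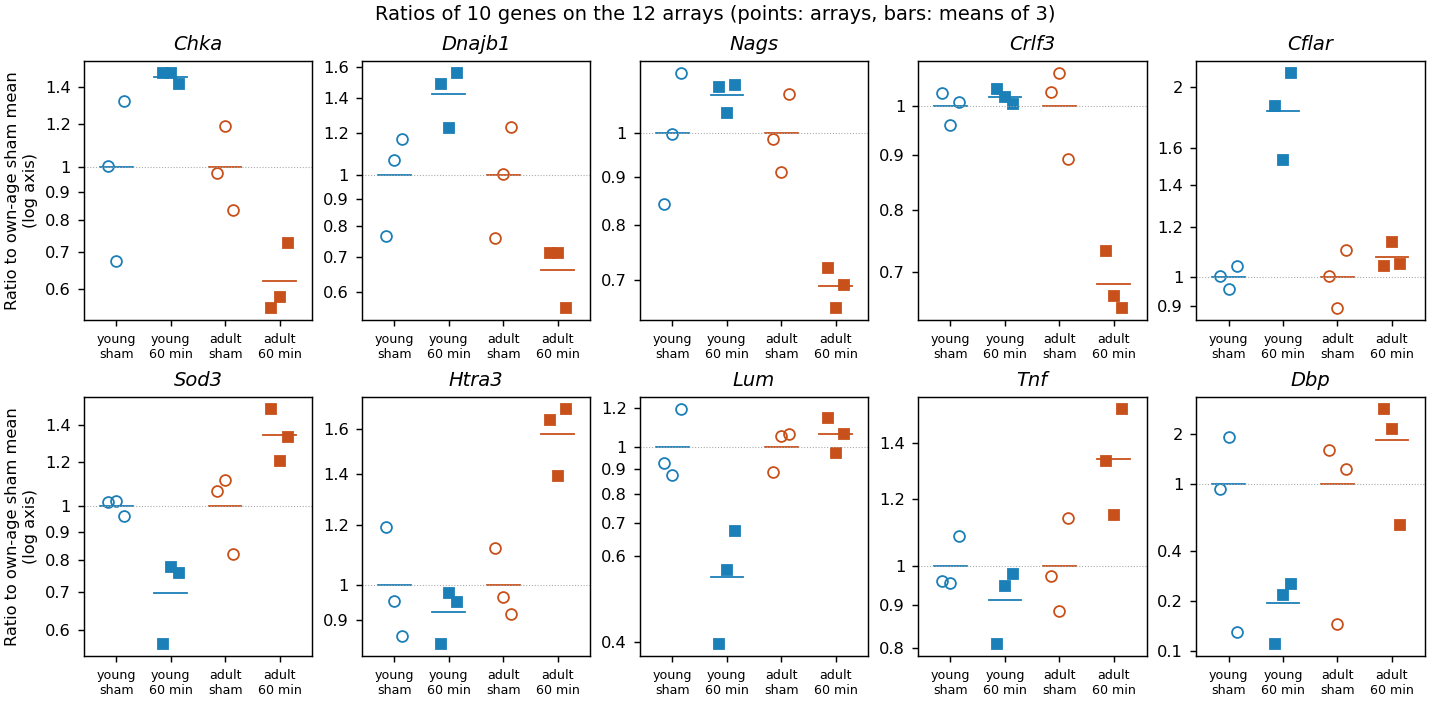
Ratios to the own-age sham mean (log axis, with its own range in each panel) of 10 genes on the 12 arrays of young (blue) and adult (orange) mice, open circles for sham, filled squares for 60 min, bars for the mean of 3. Chka, Dnajb1, Nags, Crlf3 and Cflar have all adult ischemic squares below all young ones, and Sod3, Htra3, Lum, Tnf and Dbp the reverse; sham spread is wide for Dbp.

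The 2 genes that passed in young mice were Prox1 and Gja4. Prox1, a homeobox transcription factor that hepatocytes need, had ratios of 1.54, 1.77 and 1.84 in young and 1.30, 1.16 and 1.23 in adult ischemic liver. All 6 ischemic values were above 1, and the young values were the higher ones without overlap. Prox1 rose by 0.78 log2 in young mice (adjusted p = 0.0067), had a response of 0.30 in adults (adjusted p = 0.068), and differed by -0.48 ± 0.15 between them, which did not pass. Gja4, the arterial connexin 37, had ratios of 0.372, 0.434 and 0.542 in young and 0.658, 0.582 and 0.605 in adult ischemic liver. It fell in both ages, by 1.15 in young and 0.70 in adult mice, and the difference of 0.45 had a 95% interval of -0.04 to 0.93, which includes 0. Both young calls were lost without young sham replicate 3 and with the 12 arrays fitted alone, and the call of Gja4 was also lost when either young 60 min replicate 1 or young sham replicate 2 was left out. The activin subunit gene Inhba had ratios of 2.87, 2.01 and 1.33 against 1.31, 1.25 and 1.20, and the endothelin B receptor gene Ednrb 0.648, 0.693 and 0.698 against 1.02, 0.860 and 0.869. In both genes the young values lay further from sham, upward for Inhba and downward for Ednrb, with differences of -0.65 and 0.44. Cflar, which encodes the caspase-8 inhibitor c-FLIP, had ratios of 1.86, 1.53 and 2.11 in young and 1.04, 1.14 and 1.05 in adult ischemic liver. The lowest young value lay above the highest adult value, and the difference was -0.75 ± 0.23 with an interval of -1.23 to -0.27. It was the member of its list of 36 Bcl2 family and p53 target genes that differed most, and the list as a whole had a median difference of -0.01 against -0.05 over all genes.

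Genes of protein folding lay lower in the adult than in the young response. Over all genes, 59.4% had a difference below 0 and 40.6% one above 0, which is the base for the counts of list members below. Of 28 cytosolic heat shock chaperone genes, 26 had a difference below 0, 8 were lower at an unadjusted p under 0.05 (4.64% of all genes) and 0 passed. The list median was -0.43, from -0.44 in adults and -0.07 in young mice. The Hsp70 partner Dnajb1 had ratios of 1.49, 1.22 and 1.56 in young and 0.710, 0.712 and 0.559 in adult ischemic liver, with shams from 0.766 to 1.17 and 0.760 to 1.23. All young values lay above the young shams and all adult values below the adult shams, and the difference was -1.11 ± 0.27. Members chosen after their values were seen showed 2 forms of this gap. Bag3, a co-chaperone that directs clients to autophagy, was 2.01, 1.55 and 1.57 in young and 1.04, 0.949 and 0.900 in adult mice, so the departure from sham was on the young side. Dnaja1 was 0.992, 0.833 and 0.946 in young and 0.530, 0.677 and 0.447 in adult mice, so the departure was on the adult side, where it fell (adjusted p = 0.0281). Chordc1, an Hsp90 co-chaperone, departed on both sides, at 1.26, 1.29 and 1.45 and 0.536, 0.737 and 0.612. Hsph1, the Hsp110 nucleotide exchange factor, had the lowest difference of the list, -1.21 ± 0.52, with young shams spread from 0.597 to 1.38. Hsp90aa1, the inducible Hsp90, fell in adults by 1.21 and had a young response of -0.53, with young shams from 0.525 to 1.81. In adults 7 of the 28 genes fell (7.88% of all genes).

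Of 32 ER chaperone and unfolded protein response genes, 29 had a difference below 0. At an unadjusted p under 0.05, 7 were lower (4.64% of all genes). The median difference was -0.44, next to -0.43 for the heat shock list. The adult and young medians were -0.56 and -0.05, and 6 genes fell in adults (7.88% of all genes). Dnajb9, an ER co-chaperone of BiP and a target of spliced Xbp1, had ratios of 1.74, 1.71 and 1.58 in young and 0.553, 0.865 and 0.475 in adult ischemic liver. The groups did not overlap, and they lay on opposite sides of sham, for a difference of -1.50 ± 0.55. Hspa5, which encodes the main ER chaperone BiP, had 0.908, 0.919 and 1.09 in young and 0.374, 0.581 and 0.431 in adult ischemic liver. It fell in adults by 1.13 (adjusted p = 0.0368) and stayed near 1 in young mice, but the young shams alone ranged from 0.616 to 1.48. The difference was -1.18 ± 0.43, with an interval of -2.07 to -0.28. Members chosen after their values were seen were Manf (-1.20), Creld2 (-1.19), the ubiquitin ligase of ER-associated degradation Syvn1 (-0.84), Selenos (-0.80), Xbp1 itself (-0.78) and Edem1 (-0.53), as log2 differences. Of these, Creld2 overlapped between the ages at 60 min, with 0.854, 0.632 and 1.46 in young and 0.267, 0.729 and 0.501 in adult mice, and Syvn1 had 1.35, 1.45 and 1.59 and 0.574, 1.11 and 0.796.

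Several genes of this list are known to carry an ER stress response element in their promoters, which Atf6 binds with NF-Y. It is written CCAAT, then 9 bases of any kind, then CCACG, and was searched on both strands in the 250 bases before each gene's start. In the RefSeq table (build GRCm38.p6) it was found in 37 of 32851 promoters (0.113%). Counted by gene, it was found for 35 of 27025 genes (0.13%) and for 9 of the 28 list members with an entry. The 9 genes had a median difference of -0.57 and a range from -1.19 to 0.04, and the other 19 a median of -0.41. A match describes the letters of this window and is not a measured binding site. The last 150 bases before the start are shown for the 3 members that carry the element in this stretch and had the lowest differences, with the element in capitals, on the strand of the gene.
Creld2 (chr15:88819496-88819645, plus strand): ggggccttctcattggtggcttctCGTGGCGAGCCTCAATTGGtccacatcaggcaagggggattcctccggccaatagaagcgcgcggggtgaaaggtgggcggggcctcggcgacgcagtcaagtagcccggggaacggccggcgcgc
Hspa5 (chr2:34771940-34772089, plus strand): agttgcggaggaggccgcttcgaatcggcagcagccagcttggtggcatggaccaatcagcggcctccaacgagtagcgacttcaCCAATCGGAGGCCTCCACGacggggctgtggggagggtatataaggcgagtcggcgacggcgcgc
Syvn1 (chr19:6046426-6046575, plus strand): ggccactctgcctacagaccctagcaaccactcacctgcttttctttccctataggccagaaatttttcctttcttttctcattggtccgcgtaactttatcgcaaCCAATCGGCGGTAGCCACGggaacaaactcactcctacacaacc
In Hspa5 and Syvn1 the element reads in the direction of the gene, and in Creld2 it lies on the opposite strand. Dnajb9, with the largest difference of the list, had no match in the window.

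The genes that carry nascent proteins into the ER had low values in adult liver as well. All 15 measured genes of the signal recognition particle and translocon had a difference below 0, with a median of -0.40. In adults 6 of them fell (7.88% of all genes). The median difference was -0.57 without young sham replicate 3, -0.28 without young sham replicate 1 and -0.28 with quantile normalization. Srp54a, the GTPase subunit that binds signal sequences, had ratios of 0.294, 0.229 and 0.161 on the adult and 0.573, 1.16 and 0.513 on the young ischemic arrays. Its difference, -1.62 ± 0.61, is uncertain because near-identical copies of the gene exist and the probe design is not given in the sources used here. Ssr1 and Ssr2, translocon-associated proteins named after their values were seen, both had a difference of -0.62.

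For the proteasome, 41 of 44 genes had a difference below 0, and the median was -0.31. At an unadjusted p under 0.05, 6 were lower (4.64% of all genes). In adults 22 of the 44 fell (7.88% of all genes) and the median was -0.55, and in young mice the median was -0.20. Psma1, a subunit of the outer ring of the core particle, had ratios of 0.748, 0.969 and 0.811 in young and 0.635, 0.594 and 0.442 in adult ischemic liver, against young shams of 0.821, 0.922 and 1.26 and adult shams of 0.925, 0.994 and 1.08. The ischemic groups did not overlap, and the difference was -0.63 ± 0.27. On the arrays, the list median was -0.30, -0.16 and -0.23 in young and -0.36, -0.53 and -0.78 in adult ischemic liver. Young 60 min replicates 2 and 3 thus read higher than young sham replicate 1. Without young sham replicate 3 the median difference became -0.49 and the count at an unadjusted p under 0.05 became 21, and without young sham replicate 1 that count was 0. For the ER list the median went from -0.62 without young sham replicate 3 to -0.30 without young sham replicate 1, and the unadjusted count from 20 to 2. For the heat shock list the medians were -0.61 and -0.31 and the unadjusted counts 18 and 5. The count of lower probe sets over the whole table moved as well. Of 26180 probe sets it was 1232 in the reported fit, 2465 without young sham replicate 3 and 605 without young sham replicate 1. The direction of these 3 list medians held without either array and with quantile normalization (-0.18, -0.32 and -0.33), while their size did not. When single arrays were left out, the proteasome median came nearest to 0 without adult 60 min replicate 3, at -0.21.

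**Figure D3:**
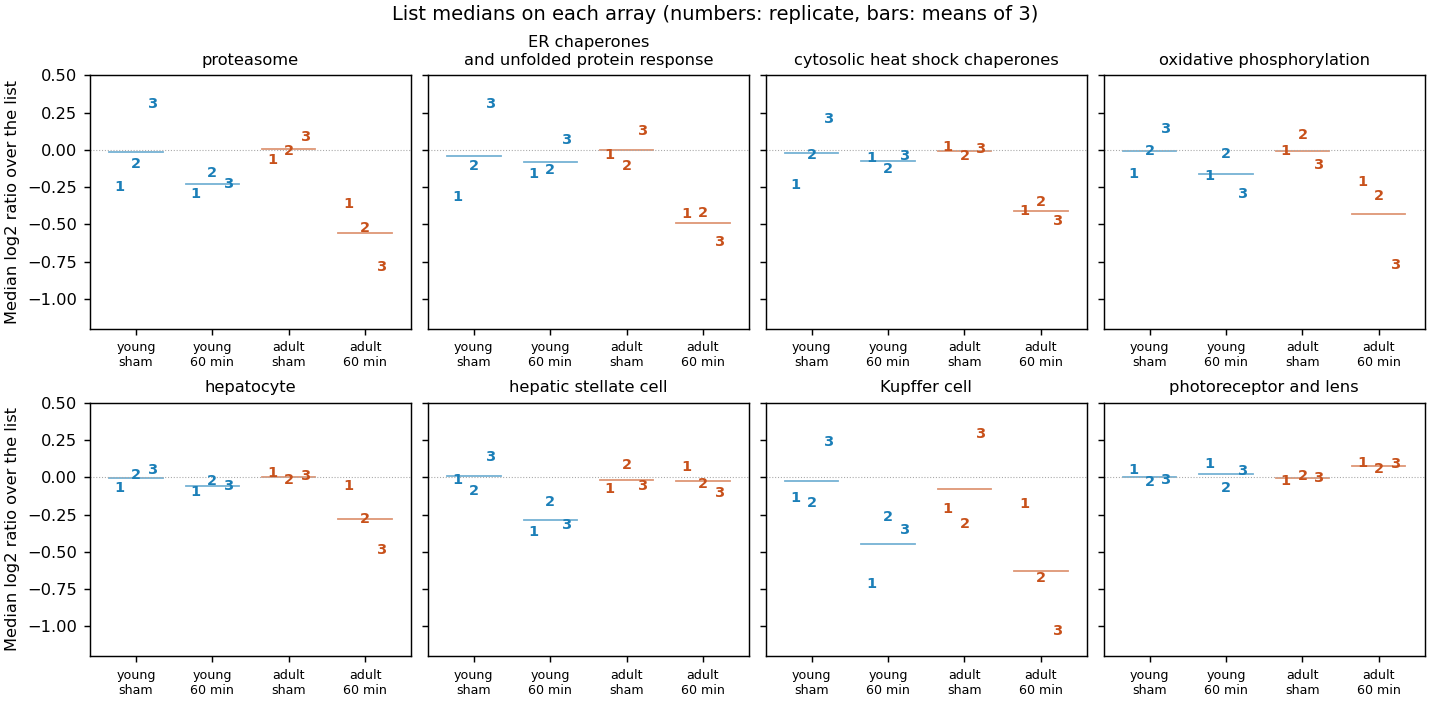
Median log2 ratio to the own-age sham mean over the genes of 8 lists on each of the 12 arrays, young in blue and adult in orange, with the digit giving the replicate and the bar the mean of 3. For the proteasome the adult ischemic arrays read -0.36, -0.53 and -0.78, below the adult shams, while the young shams alone spread from -0.25 to 0.31; the control list of photoreceptor and lens genes stays near 0 on all arrays.

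Genes of protein synthesis lay lower by smaller amounts. The 37 translation initiation and elongation genes had a median difference of -0.25, with Eif1a at -0.63, the 71 mitochondrial ribosomal genes -0.21, with Mrps31 at -0.55, and the 23 cytosolic ribosomal genes -0.15, with Rpl8 at -0.38. Young sham replicates 3 and 1 moved both larger lists, to -0.38 and -0.15 for translation factors and to -0.37 and -0.12 for the mitochondrial ribosome when left out, and quantile normalization gave -0.11 and -0.10. The cytosolic ribosome list had medians of -0.03, -0.41 and -0.74 on the adult ischemic arrays, and its difference was not stable. It was 0.02 without adult 60 min replicate 3, -0.30 without adult 60 min replicate 1, -0.25 without young sham replicate 3 and -0.01 with quantile normalization. It was -0.05, -0.05 and -0.06 without young sham replicate 1, adult sham replicate 2 and young 60 min replicate 2. Tubb2a, a beta-tubulin, had the lowest difference of all genes, -1.74 ± 0.72, with ratios of 0.142, 0.425 and 0.459 in adult and 0.574, 1.19 and 0.839 in young ischemic liver. Its young shams were 0.614, 0.432 and 1.95, a wider spread than that of the young ischemic arrays, and its close tubulin relatives make the probe set uncertain.

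Hepatocyte metabolism had the same direction in nearly all lists. Of 31 urea cycle and amino acid catabolism genes, all 31 had a difference below 0, and the median was -0.29. At an unadjusted p under 0.05, 7 were lower (4.64% of all genes). That count was 2 without young sham replicate 1 and 2 with quantile normalization. Ornithine aminotransferase (Oat), which links ornithine to glutamate, had ratios of 0.760, 1.07 and 0.905 in young and 0.584, 0.612 and 0.424 in adult ischemic liver. It fell in adults by 0.89, and the difference was -0.75 ± 0.24. Glutamine synthetase (Glul), which takes up ammonia around the central vein, had 0.725, 1.09 and 0.829 and 0.678, 0.614 and 0.515, and glutamate dehydrogenase (Glud1) 0.830, 0.983 and 0.976 and 0.817, 0.734 and 0.585. Both were named after their values were seen, and both fell in adults. Of 36 genes of PPARalpha and fatty acid oxidation, 33 were below 0 with a median of -0.27. After quantile normalization the medians were -0.13 for the urea cycle list and -0.14 for this one. Ehhadh, Acaa2 and Ppara were named after their values were seen. The peroxisomal enzyme Ehhadh and the mitochondrial thiolase Acaa2 fell in adults and had differences of -0.55 and -0.41. The receptor gene Ppara had another pattern, with 1.36, 1.45 and 2.08 in young and 1.13, 0.882 and 0.947 in adult mice, so the value away from sham was the young one. The list member with the largest absolute difference was Cyp4a14, at 0.91 with an interval of -0.94 to 2.76, and it overlapped between the ages.

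Of 67 oxidative phosphorylation genes 66 were below 0, with a median of -0.25, 4 lower at an unadjusted p under 0.05, and 13 that fell in adults. The count of 4 is close to the share over all genes (4.64%), and for genes that fell that share was 7.88%. Atp5c1, the gamma subunit of ATP synthase, had 1.03, 0.983 and 0.885 in young and 0.827, 0.590 and 0.469 in adult ischemic liver, and the complex I subunit Ndufa10, named after its values were seen, had 0.984, 1.03 and 1.07 and 0.759, 0.707 and 0.673. Both separated the ages, with differences of -0.67 ± 0.30 and -0.54 ± 0.18. Adult 60 min replicate 3 was the lowest array for this list, at a median of -0.22, -0.31 and -0.78 on the 3 adult ischemic arrays, and the difference was -0.09 without it and -0.11 with quantile normalization. Smaller median differences were found for 44 cytochrome P450 genes (-0.16) and for 38 genes of sterol and fatty acid synthesis (-0.24, with Fasn at -0.64), and 18 glutathione S-transferases had a median of -0.33. With quantile normalization these 3 medians were -0.04, -0.11 and -0.19. The P450 median was -0.09 without young 60 min replicate 2 and -0.09 without adult 60 min replicate 3, and that of the transferases -0.19 without the latter. The sterol list ranged most, with -0.15 and -0.46 without young sham replicates 2 and 3, -0.41 without young 60 min replicate 3 and -0.38 without adult sham replicate 1. Gsta2 had ratios of 0.497, 1.56 and 0.917 in young and 0.421, 0.536 and 0.353 in adult ischemic liver, and shares sequence with its relatives. The phenobarbital-responsive Cyp2b10, which was low on all 60 min arrays of both ages and has close relatives that its probe set may also read, had ratios of 0.042, 0.097 and 0.107 in young and 0.0738, 0.0702 and 0.0662 in adult mice, for a difference of 0.25 with an interval of -1.89 to 2.38. Glucose-6-phosphatase (G6pc), the last step of glucose output, read 1.95, 2.28 and 1.56 in young and 0.816, 0.900 and 1.02 in adult mice without overlap, with a difference of -1.03 and an interval of -2.14 to 0.07. The list of 21 gluconeogenesis and fasting genes had a median of -0.05, and 31 genes of hypoxia-inducible factors and glycolysis -0.06, both close to all genes, and both turned positive after quantile normalization (0.01 and 0.06). Within the latter, Ddit4 had adult values of 0.466, 0.320 and 0.282 but adult shams of 1.85, 0.315 and 0.835.

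Genes of the plasma proteins that hepatocytes secrete also lay below 0. Of 39 complement and coagulation genes 38 were below 0 with a median of -0.30, and 0 reached an unadjusted p under 0.05. Without adult 60 min replicate 1 the median was -0.46 and that count 21, and without young sham replicate 1 the median was -0.19. Over all 26180 probe sets, 1532 were lower at that p without adult 60 min replicate 1, against 1232 in the reported fit. Cpb2, a carboxypeptidase that slows fibrinolysis, had the lowest difference, -0.59 ± 0.31. On the adult ischemic arrays this list read -0.01, -0.38 and -0.70, so replicate 1 was at sham level and replicate 3 was low. All 17 hepatocyte marker genes were below 0 with a median of -0.22, and read -0.06, -0.28 and -0.49 on the same arrays. Albumin (Alb) was 0.934, 1.04 and 0.994 in young and 0.964, 0.872 and 0.727 in adult mice, a difference of -0.22 with an interval of -0.50 to 0.07. Adult 60 min replicate 3 was thus the lowest array for the hepatocyte markers and for the metabolic lists above. Without it the median differences were -0.09 for the markers, -0.12 for complement and coagulation and -0.17 for the urea cycle list, and with quantile normalization the first 2 were -0.09 and -0.13. Acute phase genes had a median of -0.34, with 0 at an unadjusted p under 0.05. Dropping adult sham replicate 3 gave -0.12, dropping adult 60 min replicate 3 gave -0.13, and quantile normalization gave -0.12. Dropping adult 60 min replicate 1 moved it the other way, to -0.67 with 12 genes at an unadjusted p under 0.05. Saa2 read 0.457, 0.103 and 0.0784 on the adult ischemic and 0.173, 0.369 and 2.46 on the adult sham arrays, for a difference of -0.96 that turned to 0.13 without that sham.

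**Figure D4:**
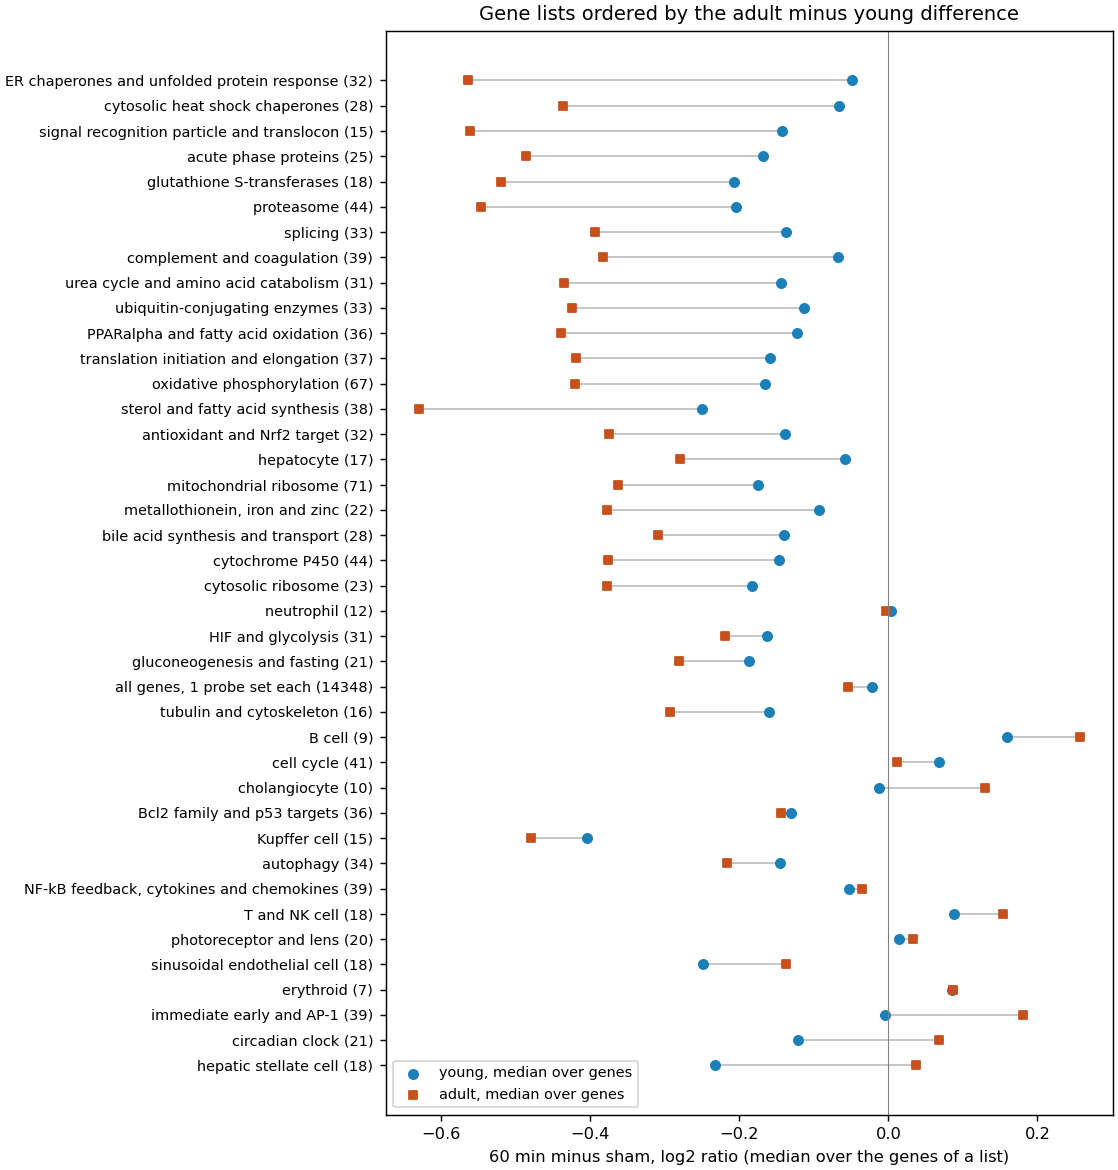
Median over the genes of each list of the response to 60 min (60 min minus sham, log2 ratio), young as blue circles and adult as orange squares, with the number of genes in brackets and lists ordered by the median adult minus young difference. Chaperone, translocon, proteasome and metabolic lists have the adult square to the left of the young circle, while hepatic stellate cell and immediate early genes have it to the right.

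On the higher side, none of the 15 genes with the smallest unadjusted p passed. The extracellular superoxide dismutase Sod3 had ratios of 0.565, 0.777 and 0.757 in young and 1.50, 1.21 and 1.34 in adult ischemic liver. All young values were below the young shams, which spread from 0.961 to 1.02, and all adult values above the adult shams, from 0.821 to 1.12, for a difference of 0.97 ± 0.24. The secreted protease Htra3 had 0.836, 0.976 and 0.948 and 1.65, 1.39 and 1.70. It rose in adults by 0.66 (adjusted p = 0.0281) and had a young response of -0.11, so its departure was on the adult side. Osteoglycin (Ogn), a small leucine-rich proteoglycan, had 0.692, 0.831 and 0.794 and 1.21, 1.33 and 1.45, and the adhesion protein gene Mxra8 0.890, 0.876 and 0.798 and 1.23, 1.33 and 1.33. Of these, Mxra8 rose in adults by 0.38. The secreted proteins Islr (0.60) and Olfml3 (0.62) and the platelet-derived growth factor receptor Pdgfra (0.58) also had positive differences. Pdgfra read 0.623, 0.727 and 0.807 in young and 1.19, 0.994 and 1.03 in adult mice, so here the departure was on the young side. Among the others, the anion channel subunit Lrrc8c had the smallest unadjusted p of the higher side, 0.000275, with 0.667, 0.629 and 0.712 in young and 1.02, 1.05 and 1.15 in adult mice. The axonal transport adaptor Fez1 and the tetraspanin Cd37 rose in adults by 0.69 and 0.44 against young responses of 0.01 and -0.14. The sodium channel Scn8a, Zcchc3 and the adaptor Shc4 had differences of 0.74, 0.52 and 0.40.

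Stellate cells store vitamin A and make most of the liver's matrix. Of their 18 marker genes 16 had a difference above 0, 3 were higher at an unadjusted p under 0.05 (2.27% of all genes), and the median was 0.23. The list read -0.37, -0.17 and -0.32 on the young and 0.07, -0.04 and -0.11 on the adult ischemic arrays, and -0.02, -0.09 and 0.14 on the young and -0.08, 0.08 and -0.06 on the adult shams. All 3 young ischemic arrays lay below every young sham, and the adult groups overlapped. Lumican (Lum), a collagen-binding proteoglycan, had 0.396, 0.561 and 0.673 in young and 1.14, 0.972 and 1.06 in adult ischemic liver, for a difference of 0.99 ± 0.29. Reln and Colec11, named after their values were seen, had 0.564, 0.652 and 0.750 and 0.469, 0.626 and 0.531 in young mice and differences of 0.64 and 0.62. The list median ranged from 0.14, without young sham replicate 3, to 0.30 when single arrays were left out. Sinusoidal endothelial markers had a median difference of 0.09. Their list medians overlapped, with -0.32, -0.20 and -0.27 on the young and 0.03, -0.16 and -0.32 on the adult ischemic arrays. Lyve1 read 0.527, 0.465 and 0.504 in young and 0.631, 0.594 and 0.578 in adult ischemic liver, without overlap. Its difference of 0.40 had an interval of -0.50 to 1.31. Kupffer cell markers were low in both ages, at -0.41 in young and -0.48 in adult mice, and their median difference of -0.01 became 0.28 without adult sham replicate 3, or -0.20 if adult 60 min replicate 1 was dropped. That sham is the one whose value for the scavenger receptor Marco was 2.52 against 0.25 and 0.23. Median differences were 0.06 for T and NK cells (Ccl5 0.64), -0.04 for B cells (Jchain 0.59), -0.07 for neutrophils (Lcn2 -0.91), -0.01 for cholangiocytes (Spp1 -0.34) and 0.10 for erythroid cells (Alas2 -0.34). The control list of photoreceptor and lens genes, which liver does not use, had 0.06 (Crygd 0.54), against -0.05 over all genes.

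The immediate early genes Jun and Fos read above 1 on most ischemic arrays of both ages and varied widely within each group. Jun had ratios of 2.23, 2.06 and 1.76 in young and 4.38, 2.29 and 1.04 in adult ischemic liver, with adult shams of 0.548, 1.86 and 0.589, and Fos had 3.44, 1.59 and 1.60 and 4.34, 1.53 and 0.452, with adult shams of 0.388, 2.12 and 0.489. The groups overlapped, and the differences of 0.30 and -0.19 had intervals of -1.14 to 1.73 and -2.32 to 1.94. The stress factor Atf3 read 1.26, 1.51 and 1.02 in young and 2.05, 2.40 and 1.10 in adult mice, a difference of 0.50 with an interval of -0.45 to 1.45. The list of 39 genes had a median of 0.13, which was 0.24 if adult sham replicate 2 was dropped and 0.07, 0.07 or 0.21 if adult 60 min replicate 1, 2 or 3 was. It had 2 genes higher at an unadjusted p under 0.05, against 2.27% of all genes. These were Maff (0.69) and the flow-sensitive endothelial factor Klf2 (0.60), named after their values were seen. Both had young values below and adult values above 1 on all ischemic arrays. Klf10 had the list's largest absolute difference, 1.61, with adult shams of 1.08, 0.265 and 1.65. Tumour necrosis factor (Tnf) had ratios of 0.809, 0.948 and 0.980 in young and 1.33, 1.15 and 1.53 in adult ischemic liver. The groups did not overlap, and the difference was 0.55 ± 0.18, but the highest adult sham, 1.14, came close to the lowest adult ischemic value. The neutrophil chemokine Cxcl1 was low in both ages, at 0.223, 0.172 and 0.159 and 0.216, 0.159 and 0.0737, and its difference of -0.23 turned positive under quantile normalization (0.31) and without adult sham replicate 3 (0.29). The list of 39 NF-kB feedback, cytokine and chemokine genes had a median of 0.00.

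Dbp, an output factor of the circadian clock, had the largest positive difference of all genes and a wide interval. It had ratios of 0.110, 0.216 and 0.254 in young and 2.84, 2.14 and 0.574 in adult ischemic liver, against 0.939, 1.93 and 0.130 in young and 1.61, 0.146 and 1.24 in adult shams. A single sham in each age, young replicate 3 and adult replicate 2, was as low as the young ischemic arrays. The difference of 2.95 had an interval of 0.14 to 5.77. Nfil3, Cry1, Arntl and Clock, which peak in another phase of the day than Dbp and were named after their values were seen, had differences of -1.64, -1.42, -1.14 and -0.83. Arntl read 0.597, 0.573 and 1.83 on the young and 0.746, 1.50 and 0.753 on the adult shams, so the shams that were low for Dbp were the ones high for Arntl. The list of 21 clock genes had a median of 0.14, which ranged from 0.04 without young sham replicate 2 to 0.22 without adult sham replicate 1. Metallothioneins shared the pattern of adult sham replicate 2. Mt2, a zinc-binding protein gene, read 0.0399, 0.116 and 0.140 in young ischemic, 1.60, 0.0515 and 0.0526 in adult ischemic and 1.23, 0.0789 and 1.69 in adult sham liver, and its difference of 1.76 had an interval of -1.45 to 4.97; Mt1 had 1.38 and -1.40 to 4.17. Their close sequence makes the 2 probe sets uncertain. The transferrin receptor (Tfrc), which imports iron and was named after its values were seen, had 1.44, 1.40 and 1.39 in young and 0.367, 0.758 and 0.611 in adult ischemic liver and a difference of -1.23 ± 0.40, with adult shams of 0.535, 0.926 and 1.54. Heme oxygenase (Hmox1), an Nrf2 target, had a difference of 0.11 with an interval of -0.45 to 0.67, and 32 antioxidant and Nrf2 target genes a median of -0.24, which was -0.14 without adult 60 min replicate 3 and -0.08 with quantile normalization.

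The same age difference was set beside those at 30 and 90 min, which share the sham arrays with it, and beside the difference of 60 against 30 min, which uses no sham array but shares the 60 min arrays. None of the 3 had a probe set that passed by limma, with 539, 2949 and 1053 probe sets at an unadjusted p under 0.05 and smallest adjusted p-values of 1.00, 0.421 and 0.951. Chka had differences of -0.55, -1.29 and -1.08 at 30, 60 and 90 min, and -0.74 for 60 against 30 min. Dnajb1 had -0.13, -1.11 and -0.08, and -0.98 for 60 against 30 min, so its value was furthest from 0 at 60 min, although the difference from 30 min did not pass. Dnajb9 had -1.32 and Hspa5 -0.64 for 60 against 30 min, values that rest on the same 60 min arrays as the comparison with sham. Both were highest on adult 30 min replicate 3, with 0.944, 0.768 and 1.38 for Dnajb9 and 0.523, 0.606 and 1.16 for Hspa5 on the adult 30 min arrays. Crlf3 had -0.40, -0.58 and -0.54, but -0.18 for 60 against 30 min, so its value at 30 min was already well below 0. Sod3 had 0.10, 0.97 and 0.58, with 0.86 for 60 against 30 min, and Htra3 0.15, 0.77 and 0.64, with 0.62. Ogn and Pdgfra had 0.02 and 0.08 for 60 against 30 min and differences of 0.75 and 0.50 at 30 min, close to those at 60 min. Tnf had -0.12 at 30, 0.55 at 60 and -0.02 at 90 min.

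For the lists, the median of the 60 against 30 min difference, free of sham arrays, was -0.26 for the proteasome, -0.28 for ER chaperones, -0.16 for heat shock chaperones, -0.36 for oxidative phosphorylation, -0.34 for the urea cycle list and 0.21 for stellate cell markers, against -0.05 over all genes. These values share the 60 min arrays with the comparison with sham, which favours the same sign, and are no independent check of it. Other lists had another sign or size, with 0.44 for Kupffer cell markers, 0.12 for cell cycle genes and -0.04 for T and NK cell markers. At 30 min the medians were -0.08, -0.17, -0.20, 0.10, 0.05 and 0.11, and at 90 min -0.42, -0.33, -0.34, -0.22, -0.21 and 0.30. The oxidative phosphorylation and urea cycle lists were thus near or above 0 at 30 min and below it at 60 and 90 min. The chaperone lists were below 0 at all 3 times. Not every metabolic list had the first pattern, and sterol and fatty acid synthesis had a median of -0.09 at 30 min. Whether the list medians differ between times was not tested.

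**Figure D5:**
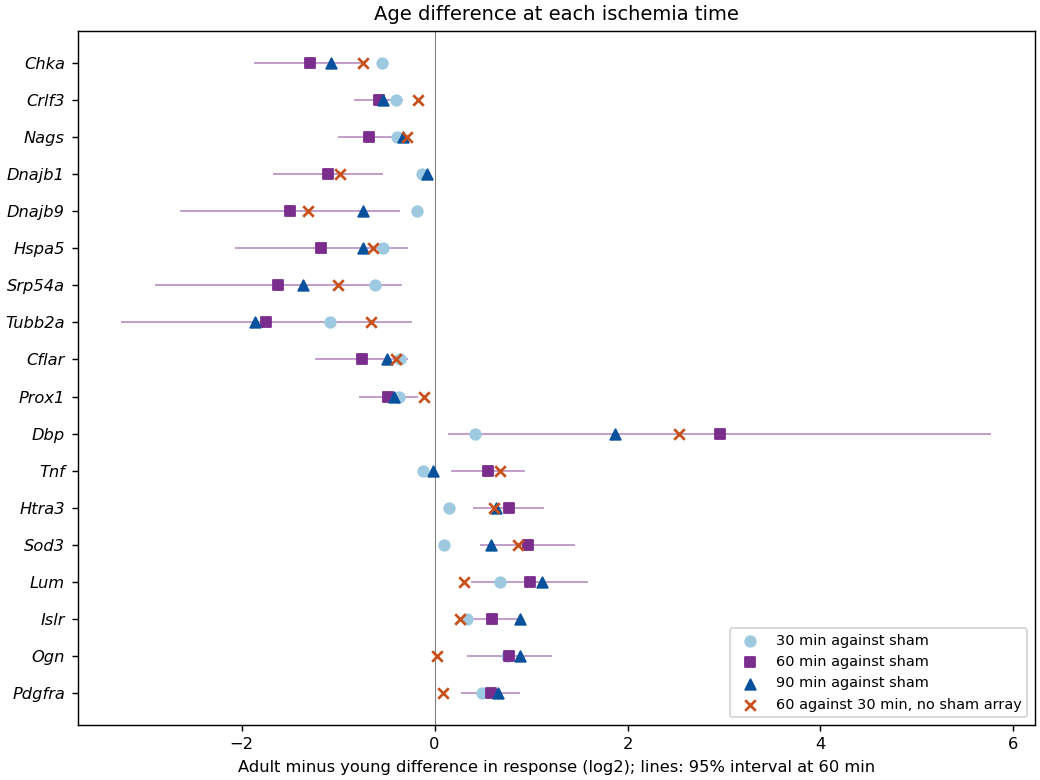
Adult minus young difference in response (log2) of 18 named genes at 30 min (light circles), 60 min (purple squares with the 95% interval), 90 min (dark triangles) and for 60 against 30 min without sham arrays (orange crosses). Dnajb1 lies far below 0 at 60 min and near 0 at 30 and 90 min, Chka, Srp54a and Tubb2a are below 0 at all times, and the interval of Dbp is the widest of those shown.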

How the data were processed

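RNA from 24 mouse livers was measured on Affymetrix arrays, with RMA named in the submitters' processing notes without a version; the probe set definition and array type are not given in the sources used here. The deposited table holds linear ratios, and a check of the values showed that each was divided by the mean of the 3 sham arrays of its age (largest deviation 2e-07). This scaling cancels in the comparison. Ratios were turned to log2, and limma 3.58.1 in R 4.3.3 fitted 8 group means to 24 arrays (lmFit, eBayes, 16 residual degrees of freedom), with two-sided p-values adjusted by Benjamini-Hochberg over 26180 probe sets and a threshold of 0.05. The code was tested on simulated data. Symbols came from RefSeq accessions through the GRCm38.p6 table; 10955 probe sets, of which 10357 have predicted accessions, had no symbol. Genes were described with 1 probe set each, chosen without values.

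Replicates are separate mice per the series' design text. Because the table keeps no brightness, a filter on low values was not run. Named genes were the 15 per direction that would lead by adjusted p and non-overlap, filled with the smallest unadjusted p because none passed, the member of each of 39 lists with the largest absolute difference, and a fixed set of 19; any other gene is marked in the text as picked with its values in view. Some of the genes that this rule names are not reported here. Lists (1118 of 1294 entries measured) are described by counts and medians, without a test. The members and lists were chosen with earlier results of these data known. Alternatives were the 12 arrays alone, a block, centring, quantile normalization, log2(ratio + 0.1), 1 probe set per gene, a robust prior and leaving out each array.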

Additional observations from a re-analysis of the deposited data

Results flagged for a closer look

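For 26 of the 81 named genes, all 3 adult ischemic arrays lay on one side of the sham mean and all 3 young ischemic arrays on the other. Over all 14348 genes this held for 633 (4.41%). The named genes were largely picked by a small unadjusted p or a large difference, which favours groups that lie apart. Their share is therefore not comparable with that of all genes. None of the differences passed by limma, with adjusted p-values of at least 0.708.

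Below sham in adults and above it in young mice were the ER co-chaperone Dnajb9 (log2 difference -1.50), choline kinase Chka (-1.29), the Hsp70 partner Dnajb1 (-1.11), Cacul1 (-0.76), the urea cycle gene Nags (-0.68), Klhl28 (-0.66), Crlf3 (-0.58), Cemip (-0.53), Luc7l (-0.51), Patj (-0.46), E330034G19Rik (-0.45) and Ints13 (-0.41).

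Among those above sham in adults and below it in young mice were the extracellular superoxide dismutase Sod3 (0.97), the proteoglycan Ogn (0.78), the secreted protease Htra3 (0.77), Scn8a (0.74), Lrrc8c (0.69), the T cell chemokine Ccl5 (0.64), Olfml3 (0.62), Mxra8 (0.60), Islr (0.60), Cd37 (0.58), Tnf (0.55), Zcchc3 (0.52) and Shc4 (0.40).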

How the results depend on the processing

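The age difference at 60 min gave 0 probe sets under each of the 7 alternatives that kept all arrays of the comparison, and between 0 and 3 when single arrays were left out. The 3 that passed without adult sham replicate 2 have no symbol, and the 1 that passed without adult sham replicate 3 was Moxd1 (3.96). The lists had 0 members past the threshold throughout. The adult count was 1361 with the 12 arrays alone, 0 with quantile normalization, 0 to 2977 with single adult sham or 60 min arrays left out, 3130 without young sham replicate 3 and 4117 without adult 30 min replicate 3. The young count was 0 with 12 arrays, 7 with quantile normalization, 4 with 1 probe set per gene and 0 to 9 with single young sham or 60 min arrays left out. The difference at 60 against 30 min gave 0 to 7, the 7 being predicted transcripts without young 30 min replicate 1. The causes were not tested, except that quantile normalization and fewer arrays change the spread by construction. Differences that changed sign when single arrays were left out were those of Saa2 (-1.78 to 0.13), Marco (-1.05 to 0.67), Lcn2 (-2.16 to 0.21), Cxcl1 (-0.76 to 0.29; 0.31 with quantile normalization), Cyp2b10 (-0.55 to 0.85), Jun (-0.21 to 0.87), Fos (-0.98 to 0.65), Hmox1 (-0.19 to 0.29) and Mt1 (-0.044 to 2.13).

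The code in the sample titles was tried as a replicate block, and 0 probe sets passed for the age difference, as without it. With the block the unadjusted count was 2360 against 1821, and the counts of lower genes at an unadjusted p under 0.05 were 18 against 7 for the ER list, 15 against 8 for heat shock chaperones and 12 against 6 for the proteasome. The 5 pairs that shared a code within an age had correlations of -0.19, -0.07, -0.03, 0.18 and 0.01 between their deviations, so the codes were not shown to pair samples. Young sham replicate 3 and young 60 min replicate 1 were in none of these pairs. No code occurred in both ages, so age and code cannot be told apart. The unadjusted count was 3459 at its highest, without young sham replicate 3, and 1044 without young sham replicate 1. Precision was limited by 3 arrays per group, and signal over background could not be judged from ratios.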

Other observations

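Further gene groups had negative median differences, where 59.4% of all genes had a difference below 0. Of 33 ubiquitin-conjugating enzyme genes 29 had a difference below 0 with a median of -0.28, and 13 fell in adults (7.88% of all genes). Ube2s, which extends ubiquitin chains for the anaphase-promoting complex, departed from this: its ratios were 1.94, 1.50 and 1.47 in young and 1.00, 0.980 and 0.972 in adult ischemic liver, so the adult values were at sham level and the young ones high, for a difference of -0.72. Of 33 splicing genes 27 were below 0 with a median of -0.30, and Tra2a, which binds exonic splicing enhancers, had the largest absolute difference, -0.75. Of 28 bile acid genes 20 were below 0, which is not far from the share over all genes. The bile acid median of -0.16 was not stable, with -0.07 after quantile normalization, -0.10 and -0.09 without young 60 min replicate 2 and adult 60 min replicate 3, and -0.24, -0.26 and -0.27 without young sham replicate 2, young 60 min replicate 3 and adult sham replicate 2. Quantile normalization gave -0.15 for the ubiquitin-conjugating enzymes and -0.17 for splicing. Without young sham replicate 3 these medians were -0.35 and -0.36, and without adult 60 min replicate 3 they were -0.20 and -0.22. Nr0b2 (SHP), a repressor of bile acid synthesis named after its values were seen, had 0.989, 1.64 and 1.55 in young and 0.500, 0.880 and 0.865 in adult mice, while the low difference of the transporter Slc10a2 (-1.19) went with adult shams of 0.397, 0.341 and 2.26.

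Cell cycle genes had a median of -0.03 (41 genes, Mcm4 -0.55) and autophagy genes 0.00 (34 genes, Ulk1 0.72). Both medians were near that of all genes, -0.05. The list of 16 cytoskeleton genes that holds Tubb2a had a median of -0.04. The fibrinogen gene Fgb, the hepatocyte marker with the lowest difference, read 1.08, 0.616 and 0.534 on the adult ischemic arrays.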
